A study of Oryza sativa with 12 samples.

Results

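The cell wall and vacuolar invertases of rice were followed in developing grain of *WYJ8* and *RGB1Ri-5*. The set is 7 genes given by their MSU locus identifiers, out of 35587 genes listed in at least 1 library. It holds 5 cell wall invertases (*CIN1*, *CIN2*, also called *GIF1*, *CIN3*, *CIN4* and *CIN7*) and 2 vacuolar invertases, here called by their chromosomes. The rule for choosing them uses the identifiers and no measured value, but it was set with earlier results of these data known. Levels are in FPKM (fragments of a transcript, scaled to its length and to the mapped fragments of the library), so they can be compared between genes. Tests covered genes averaging 1 FPKM or more over the 12 libraries, which took in 6 of the 7. *CIN3* did not reach that mean.

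Invertases split sucrose irreversibly into glucose and fructose. The cell wall forms act in the apoplast, where sucrose leaves the phloem and the maternal tissue on its way to the endosperm, and the hexoses formed there are taken up by transporters. The vacuolar forms act inside the cell, where hexoses held in the vacuole raise the osmotic pressure of expanding cells. *GIF1* (*GRAIN INCOMPLETE FILLING 1*) is the cell wall invertase known in rice for its part in early grain filling.

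*WYJ8* is the japonica cultivar Wuyujing 8, the wildtype. *RGB1Ri-5* is 1 transgenic line in that background. It carries a hairpin against *RGB1*, the gene of the beta subunit of the heterotrimeric G protein, built from a Nipponbare fragment of that gene and driven by the maize ubiquitin promoter, which is active in most tissues. Field-grown grain was taken at 5 and 10 days after flowering (DAF), and the labels give no further treatment. Each of the 4 groups had 3 libraries. The labels and the study's methods call the extracted tissue grain, while its results call the profiled tissue caryopsis. Whether hulls were included is thus not clear. The labels and methods do not say that the replicates came from separate plants or plots. The p-values therefore measure the spread between these libraries, which may be technical in part.

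The libraries listed 27055 to 29576 genes, and their depth is unknown. Genotype effects are log2(FPKM + 1) of *RGB1Ri-5* minus *WYJ8*, and stage effects are 10 DAF minus 5 DAF. Calls needed both an adjusted p below 0.05 (limma, Benjamini-Hochberg over 21470 genes) and a difference of 1 or more, up or down, on the log2 scale (the fold limit). In *WYJ8* at 10 DAF the 100 highest genes took 48.7% to 52.8% of the summed FPKM, against 12.9% to 22.4% in the other libraries. The median log2 difference over all tested genes was 0.80 for the genotype effect at 10 DAF and -0.77 for the stage effect in *WYJ8*. It was -0.07 for the genotype effect at 5 DAF and 0.10 for the stage effect in *RGB1Ri-5*. Values after median-of-ratios scaling, which sets the typical gene level between libraries and brings these medians to between 0.00 and 0.01, are therefore given beside those on deposited FPKM wherever *WYJ8* at 10 DAF enters. The locus taken for *RGB1*, identified from general knowledge, had 34.9 to 38.7 FPKM in *WYJ8* and 25.1 to 30.6 in *RGB1Ri-5* at 5 DAF, but 16.1 to 18.7 and 39.7 to 44.5 FPKM at 10 DAF. At 10 DAF the difference went against the label (log2 fold change 1.20, limma adjusted p = 3.89e-06, and 0.24, adjusted p = 0.0358, after median-of-ratios scaling). Reads of the hairpin itself can count toward the gene. *RGB1Ri-5* below thus means the libraries labelled *RGB1Ri-5*. Replicates correlated at 0.971 to 0.990 across genes within 3 of the groups and at 0.899 to 0.959 in *RGB1Ri-5* at 10 DAF, where replicate 2 stood apart.

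At 5 DAF, transcripts of both vacuolar invertases and of *CIN1* were more abundant in *RGB1Ri-5* than in *WYJ8*, and those of *CIN2* were less abundant. The vacuolar genes differed by 21.9-fold and 9.78-fold in mean FPKM, *CIN1* by 3.36-fold, and *CIN2* was at 0.463 of the *WYJ8* mean. *CIN4* and *CIN7* did not reach the threshold. Thus 3 of the 6 tested invertases were called higher and 1 lower, where 10.8% and 10.1% of all tested genes were called in those directions. The 6 genotype effects had a median of 1.11, beside -0.07 over all tested genes. In RNA from a tissue of several cell types, a change in the share of a cell type and a change in RNA per cell cannot be told apart.

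**Figure D1:**
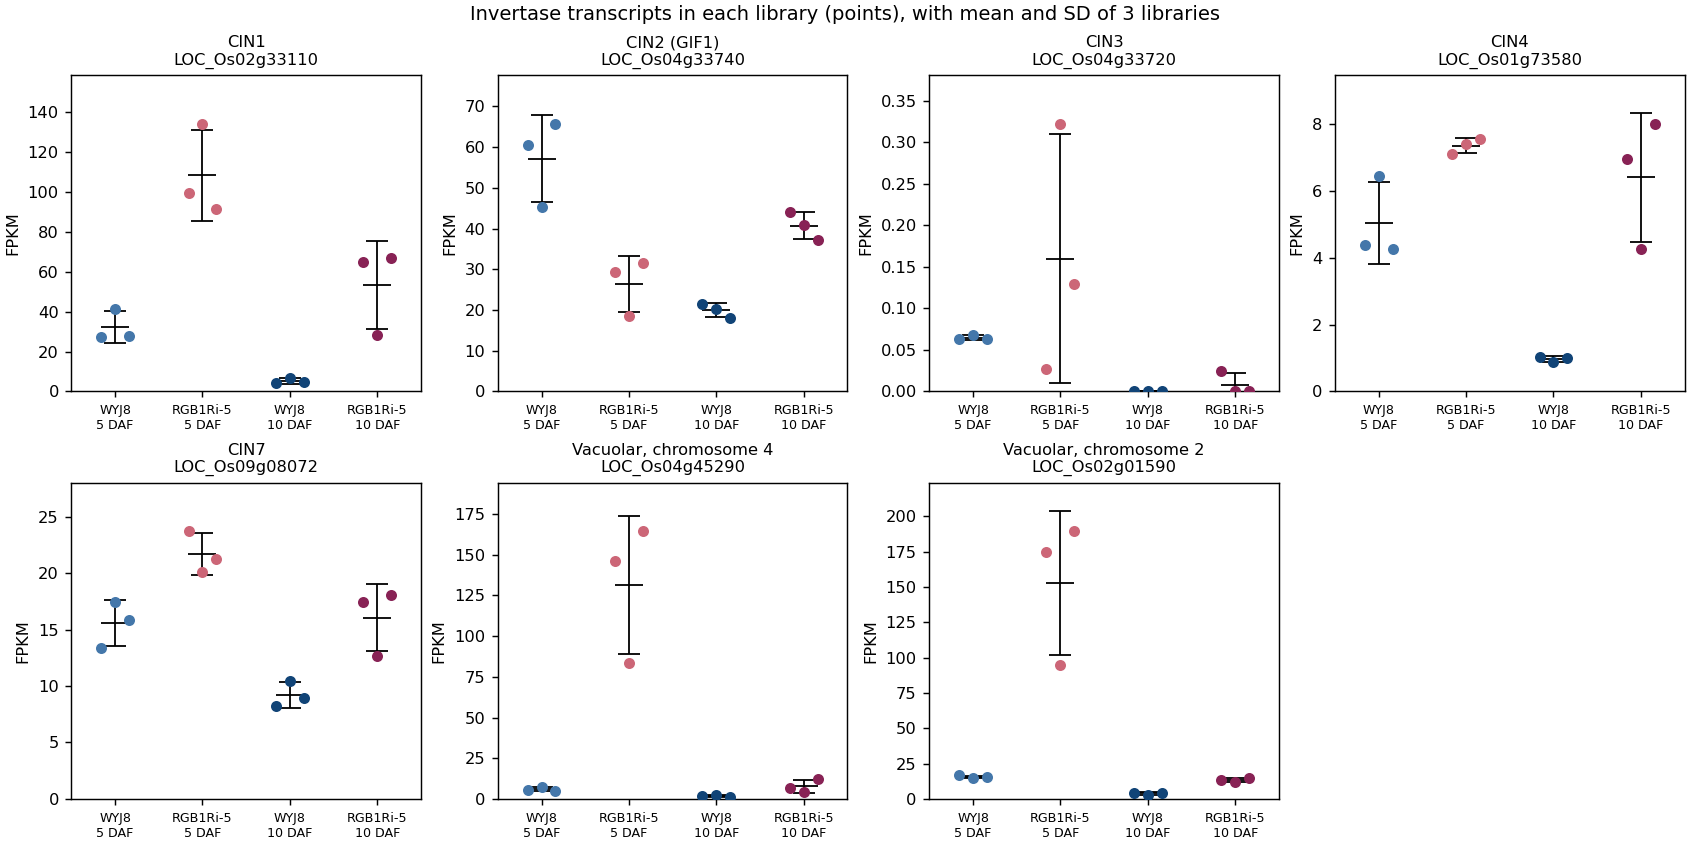
Level of each invertase (FPKM, linear axes from 0, own scale per panel) in the 12 libraries. Points are libraries, and the horizontal mark and bars are the mean and SD of 3. The vacuolar genes stood above 80 FPKM only in *RGB1Ri-5* at 5 DAF, and *CIN2* was highest in *WYJ8* at 5 DAF.

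The vacuolar invertase on chromosome 4 (LOC_Os04g45290, chr4:26765198-26771893) showed the widest range as a fold. It had 5.51, 7.35 and 5.14 FPKM in the *WYJ8* libraries at 5 DAF and 146, 83.8 and 164 FPKM in the *RGB1Ri-5* libraries. By 10 DAF it had 1.55, 2.43 and 1.40 FPKM in *WYJ8* and 6.51, 4.35 and 12.3 FPKM in *RGB1Ri-5*. The genotypes did not overlap at either stage, and the late *RGB1Ri-5* libraries spanned the range of the early *WYJ8* libraries. The genotype effect was 4.20 ± 0.32 (SE, n = 3 per group, limma adjusted p = 1.51e-06) at 5 DAF. The effect at 10 DAF was 1.56 ± 0.32 (limma adjusted p = 0.000841), and 0.82 (adjusted p = 0.037) after median-of-ratios scaling, under the fold limit. The low levels in *WYJ8* at 10 DAF understate this effect on the log2(FPKM + 1) scale. With 0.1 in place of 1 added to deposited FPKM, it was 1.955 (limma adjusted p = 0.00038). The genotype effect was smaller at 10 DAF than at 5 DAF by either scaling (interaction -2.64 ± 0.46, limma adjusted p = 0.000331, and -3.43, adjusted p = 8.77e-05).

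The vacuolar invertase on chromosome 2 (LOC_Os02g01590, chr2:343056-347196) had 16.7, 15.01 and 15.2 FPKM in *WYJ8* at 5 DAF and 175, 95.0 and 189 FPKM in *RGB1Ri-5*. The values at 10 DAF were 4.54, 2.93 and 4.13 FPKM in *WYJ8* and 13.2, 12.05 and 14.96 FPKM in *RGB1Ri-5*. Early *RGB1Ri-5* was highest, then early *WYJ8*, then late *RGB1Ri-5*, and late *WYJ8* was lowest. No groups overlapped, although early *WYJ8* and late *RGB1Ri-5* were barely apart. The genotype effect was 3.15 ± 0.22 (SE, n = 3 per group, limma adjusted p = 9.03e-07) at 5 DAF and 1.58 ± 0.22 (adjusted p = 5.94e-05) at 10 DAF. The latter was 0.72 (adjusted p = 0.0225) after median-of-ratios scaling, under the fold limit, and the interaction was -1.57 ± 0.32 (limma adjusted p = 0.000932), or -2.50 (adjusted p = 0.000145) after scaling.

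Both vacuolar genes were lowest in replicate 2 among the *RGB1Ri-5* libraries at 5 DAF. Without that library the genotype effects at 5 DAF were 4.49 and 3.46 for the genes on chromosomes 4 and 2. The genes moved together across the 12 libraries (Pearson r = 0.98 of log2 values, a description over libraries that share groups). Their ratio was not constant, though. The chromosome 2 gene had 2.04 to 3.03 times the FPKM of the chromosome 4 gene in *WYJ8* at 5 DAF, but only 1.13 to 1.19 times in *RGB1Ri-5* at that stage. The ratio at 10 DAF ran from 1.20 to 2.95 in *WYJ8* and from 1.21 to 2.77 in *RGB1Ri-5*, with full overlap.

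*CIN2* (*GIF1*, LOC_Os04g33740, chr4:20422170-20427062) was the only tested invertase that was lower in *RGB1Ri-5* at 5 DAF. It had 60.6, 45.2 and 65.8 FPKM in *WYJ8* and 29.2, 18.6 and 31.5 FPKM in *RGB1Ri-5* at that stage. The 10 DAF libraries had 21.5, 20.2 and 18.1 FPKM in *WYJ8* and 43.9, 41.0 and 37.2 FPKM in *RGB1Ri-5*. On deposited FPKM the genotypes thus separated in opposite directions at the 2 stages, without overlap at either. The genotype effect was -1.10 ± 0.19 (SE, n = 3 per group, limma adjusted p = 0.000521) at 5 DAF and -1.01 (adjusted p = 0.00291) after median-of-ratios scaling. It missed the fold limit, at -0.99, without replicate 3 of *WYJ8* at 5 DAF, and at -0.87 without replicate 2 of *RGB1Ri-5* at 5 DAF.

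At 10 DAF the effect on *CIN2* was 0.99 ± 0.19 (limma adjusted p = 0.000477), just under the fold limit and close to the median of all genes. After median-of-ratios scaling it was 0.03 ± 0.22 (adjusted p = 0.922), with means of 32.6 ± 1.77 in *WYJ8* and 33.5 ± 4.905 in *RGB1Ri-5* (SD, n = 3, scaled FPKM). Whether *CIN2* was more abundant in *RGB1Ri-5* at 10 DAF therefore depended on the scaling. The difference between the stages did not, being 2.09 ± 0.27 (limma adjusted p = 4.53e-05) on deposited FPKM and 1.03 ± 0.32 (adjusted p = 0.0199) after scaling. On deposited FPKM the late *RGB1Ri-5* libraries lay below every early *WYJ8* library, but after scaling these ranges overlapped. They lay above every early *RGB1Ri-5* library by either scaling.

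*CIN1* (LOC_Os02g33110, chr2:19682542-19687250) was higher in *RGB1Ri-5* at both stages. At 5 DAF it had 27.5, 41.5 and 27.95 FPKM in *WYJ8* and 99.5, 134 and 91.6 FPKM in *RGB1Ri-5*. Later, at 10 DAF, it had 4.17, 6.75 and 4.47 FPKM in *WYJ8* and 65.2, 28.1 and 67.0 FPKM in *RGB1Ri-5*. The genotypes were apart at both stages, although replicate 2 of *RGB1Ri-5* at 10 DAF was well below the other late *RGB1Ri-5* libraries. The genotype effect was 1.72 ± 0.31 (SE, n = 3 per group, limma adjusted p = 0.000677) at 5 DAF and 3.07 ± 0.31 (adjusted p = 6.79e-06) at 10 DAF. The effect at 10 DAF stayed past the fold limit after median-of-ratios scaling, at 2.18 (limma adjusted p = 6.49e-05), and was 3.48 without replicate 2 of *RGB1Ri-5*. Whether it was larger at 10 DAF than at 5 DAF depended on the scaling (interaction 1.35 ± 0.44, limma adjusted p = 0.0144, against 0.37 ± 0.37, adjusted p = 0.441).

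*CIN1* and *CIN2* changed rank between the genotypes, which no scaling of libraries can alter. The level of *CIN1* was 0.425 to 0.919 of that of *CIN2* in the *WYJ8* libraries at 5 DAF and 0.194 to 0.334 at 10 DAF. In *RGB1Ri-5* it was 2.90 to 7.23 times that of *CIN2* at 5 DAF. In the 10 DAF libraries it was 1.48 and 1.80 times that of *CIN2* in replicates 1 and 3, but 0.686 in replicate 2. The genotypes did not overlap in this ratio at either stage.

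*CIN4* (LOC_Os01g73580, chr1:42626320-42630440) was a minor transcript that differed mainly at 10 DAF. At 5 DAF it had 4.37, 6.44 and 4.27 FPKM in *WYJ8* and 7.11, 7.42 and 7.55 FPKM in *RGB1Ri-5*. At 10 DAF it had 1.02, 0.866 and 1.00 FPKM in *WYJ8*, and 6.96, 4.26 and 8.02 FPKM in *RGB1Ri-5*. The ranges of the genotypes were apart at both stages, narrowly at 5 DAF. The genotype effect was 0.49 ± 0.19 (SE, n = 3 per group, limma adjusted p = 0.054) at 5 DAF and 1.88 ± 0.19 (adjusted p = 7.92e-06) at 10 DAF, where it was 1.24 (adjusted p = 5.26e-05) after median-of-ratios scaling. The effect was larger at 10 DAF by both scalings (interaction 1.39 ± 0.28, limma adjusted p = 0.00081, and 0.69, adjusted p = 0.0174). Levels near 1 FPKM understate a fold change on the log2(FPKM + 1) scale. The ratio of mean FPKM at 10 DAF was 6.67 on deposited values. After median-of-ratios scaling the means at 10 DAF were closer, at 1.58 ± 0.144 in *WYJ8* and 5.16 ± 1.09 in *RGB1Ri-5* (SD, n = 3, scaled FPKM).

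*CIN7* (LOC_Os09g08072, chr9:4165396-4170978) varied least of the tested invertases relative to its level. It had 13.4, 17.4 and 15.8 FPKM in *WYJ8* and 23.7, 20.1 and 21.3 FPKM in *RGB1Ri-5* at 5 DAF. The values at 10 DAF were 8.20, 10.4 and 8.92 FPKM in *WYJ8* and 17.4, 12.6 and 18.0 FPKM in *RGB1Ri-5*. On deposited FPKM the ranges were apart at both stages, but after median-of-ratios scaling they overlapped at 10 DAF. Neither genotype effect reached the fold limit (0.46 ± 0.15, limma adjusted p = 0.0233, at 5 DAF, and 0.73 ± 0.15, adjusted p = 0.000772, at 10 DAF). The value at 10 DAF lay at the median of all genes and turned to -0.19 (limma adjusted p = 0.221) after median-of-ratios scaling and to -0.09 (adjusted p = 0.567) after quantile normalization.

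*CIN3* (LOC_Os04g33720, chr4:20412314-20415242) lies beside *CIN2*, with 6928 bases between the annotated genes. It was listed in 7 of 12 libraries and was not tested. Its levels were 0.0632 to 0.0679 FPKM in *WYJ8* at 5 DAF and 0.0268 to 0.323 FPKM in *RGB1Ri-5*, with overlap. At 10 DAF it was listed in none of the *WYJ8* libraries and in 1 of the *RGB1Ri-5* libraries, at 0.0246 FPKM. How reads shared by related invertase genes were counted is not given in the sources used here, and none of the 7 genes shares its annotated position with another gene.

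At 10 DAF, 4 of the 6 tested invertases were called higher in *RGB1Ri-5* and 0 lower, *CIN1*, *CIN4* and both vacuolar genes. This has to be read against the background at that stage, where 36.4% of all tested genes were called higher and 3.33% lower. After median-of-ratios scaling 2 invertases (*CIN1* and *CIN4*) were called higher, where 9.25% of all genes were called higher and 9.09% lower. All 6 estimates were above 0 on deposited FPKM, and that of *CIN7* went below 0 after scaling. The median of the 6 was 1.57 beside 0.80 over all tested genes, and 0.77 beside 0.00 after scaling.

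**Figure D2:**
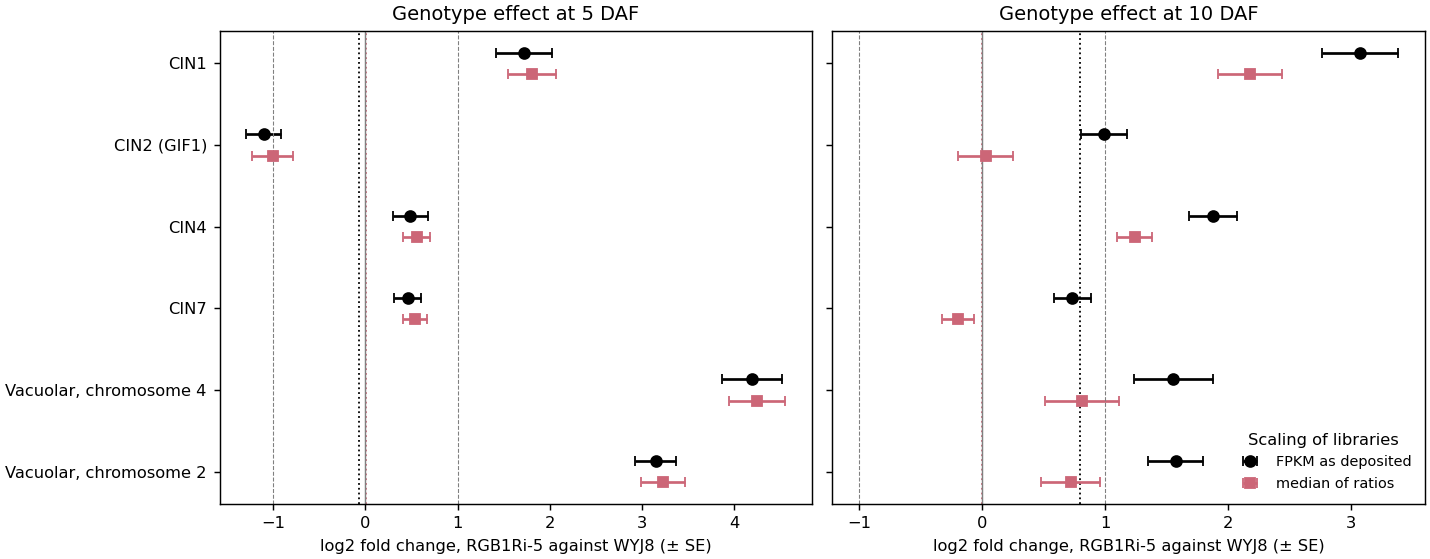
Genotype effect (log2 fold change ± SE, 3 libraries per group, from limma) of the 6 tested invertases at 5 and 10 DAF, on deposited FPKM (circles) and after median-of-ratios scaling (squares). Dotted lines are the medians of all tested genes, dashed lines the fold limits. The scalings nearly coincide at 5 DAF and part at 10 DAF, where *CIN1* and *CIN4* stay past the limit and *CIN2* moves from 0.99 to 0.03.

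The interaction asked whether the genotype effect itself differed between the stages. It was past the threshold (adjusted p under 0.05, no fold limit) in 3 invertases with a higher effect at 10 DAF (*CIN1*, *CIN2* and *CIN4*) and in 2 with a lower effect (both vacuolar genes). Over all tested genes 67.2% were called in the higher direction and 8.45% in the lower. After median-of-ratios scaling *CIN2* and *CIN4* were called higher, and *CIN7* (-0.74, limma adjusted p = 0.00718) and both vacuolar genes lower, where 20.2% and 24.7% of all genes were called.

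From 5 to 10 DAF in *WYJ8*, 5 of the 6 tested invertases fell on deposited FPKM and 0 rose, where 33.3% of all genes were called lower and 2.11% higher. *CIN1* fell by 2.44 ± 0.31 (limma adjusted p = 3.26e-05) on the log2 scale, to 0.159 of its mean deposited FPKM at 5 DAF. Its means after median-of-ratios scaling were 26.5 at 5 DAF and 8.41 at 10 DAF, a smaller fall. *CIN2* fell by 1.46 (limma adjusted p = 3.84e-05) and *CIN4* by 1.60 (adjusted p = 2.6e-05). The vacuolar gene on chromosome 4 fell by 1.33 (limma adjusted p = 0.00253) and that on chromosome 2 fell by 1.79 (adjusted p = 3.2e-05). Only *CIN1* was still called after median-of-ratios scaling, at -1.56 (limma adjusted p = 0.000639), where 7.37% of all genes were called lower and 7.05% higher. The scaled values of the other 4 genes were all under the fold limit. *CIN4* was at -0.98 (limma adjusted p = 0.000278) and the vacuolar gene on chromosome 2 at -0.94 (adjusted p = 0.00672). The vacuolar gene on chromosome 4 was at -0.61 (limma adjusted p = 0.112) and *CIN2* at -0.50 (adjusted p = 0.0772). *CIN7* turned from -0.70 to 0.21.

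In *RGB1Ri-5* the same interval brought a larger drop of the vacuolar invertases than in *WYJ8* (the interactions given above). The gene on chromosome 4 fell by 3.97 ± 0.32 (SE, n = 3 per group, limma adjusted p = 3.21e-06), to 0.0588 of its mean FPKM at 5 DAF. The gene on chromosome 2 fell by 3.36 ± 0.22 (limma adjusted p = 8.18e-07), to 0.0876 of that mean. The low level of the chromosome 4 gene in *WYJ8* at 10 DAF understates its drop there on the log2(FPKM + 1) scale. With 0.1 in place of 1 added to FPKM, its stage effect was -1.71 in *WYJ8* and -4.14 in *RGB1Ri-5*, still larger in *RGB1Ri-5*. *CIN1* fell by 1.09 ± 0.31 (limma adjusted p = 0.0135), but its value was -0.69 (adjusted p = 0.0293) without replicate 2 at 10 DAF and -0.93 (adjusted p = 0.0525) without replicate 2 at 5 DAF, so the call was lost in each case. With these 3 genes called lower and 0 higher, the background was 9.35% lower and 7.56% higher. *CIN2* had a stage effect of 0.63 ± 0.19 (limma adjusted p = 0.0177), under the fold limit, with every late library above every early one. *CIN4* had -0.21 (limma adjusted p = 0.414) with overlapping ranges, and *CIN7* had -0.43 (adjusted p = 0.0373).

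Summed over the 7 genes, invertase transcripts came to 132 ± 3.20 FPKM (SD, n = 3) in *WYJ8* and 449 ± 78.2 FPKM in *RGB1Ri-5* at 5 DAF. The sums at 10 DAF were 40.9 ± 2.76 and 138 ± 30.7 FPKM, and 67.0 ± 3.81 and 111 ± 14.2 after median-of-ratios scaling. The vacuolar genes made up most of the excess at 5 DAF, with 21.6 ± 1.13 FPKM in *WYJ8* and 284 ± 93.1 FPKM in *RGB1Ri-5*, against 110 ± 3.98 and 164 ± 14.9 FPKM for the cell wall genes. At 10 DAF most of the difference in FPKM lay in the cell wall genes, which made up most of the sum in either genotype. They had 35.2 ± 2.85 FPKM in *WYJ8* and 117 ± 26.6 FPKM in *RGB1Ri-5*. Their sums after scaling were 57.7 ± 4.22 and 94.3 ± 12.8. The vacuolar genes were also higher in *RGB1Ri-5*, with 5.66 ± 0.384 FPKM in *WYJ8* and 21.1 ± 5.59 FPKM in *RGB1Ri-5*. Scaled, these sums were 9.27 ± 0.453 and 17.1 ± 3.15. The cell wall share of the sum was thus similar, at 86.1% in *WYJ8* and 84.6% in *RGB1Ri-5*.

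Shares within a library do not depend on how libraries are scaled to each other. The cell wall genes held 83.6 ± 1.14% (SD, n = 3) of the summed invertase FPKM in *WYJ8* at 5 DAF, 86.1 ± 1.39% in *WYJ8* at 10 DAF and 84.6 ± 2.29% in *RGB1Ri-5* at 10 DAF. *RGB1Ri-5* at 5 DAF stood apart, at 33.2%, 50.3% and 30.1% in its 3 libraries. The *CIN2* share was 43.4 ± 8.23% in *WYJ8* and 5.83 ± 0.578% in *RGB1Ri-5* at 5 DAF, and 48.8 ± 3.26% and 30.8 ± 8.40% at 10 DAF. *CIN2* was thus the leading invertase transcript in all 6 *WYJ8* libraries. In *RGB1Ri-5* it led only in replicate 2 at 10 DAF, where it held 40.0%. The *CIN7* share at 10 DAF was 22.5 ± 2.14% in *WYJ8* and 11.7 ± 0.543% in *RGB1Ri-5*.

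**Figure D3:**
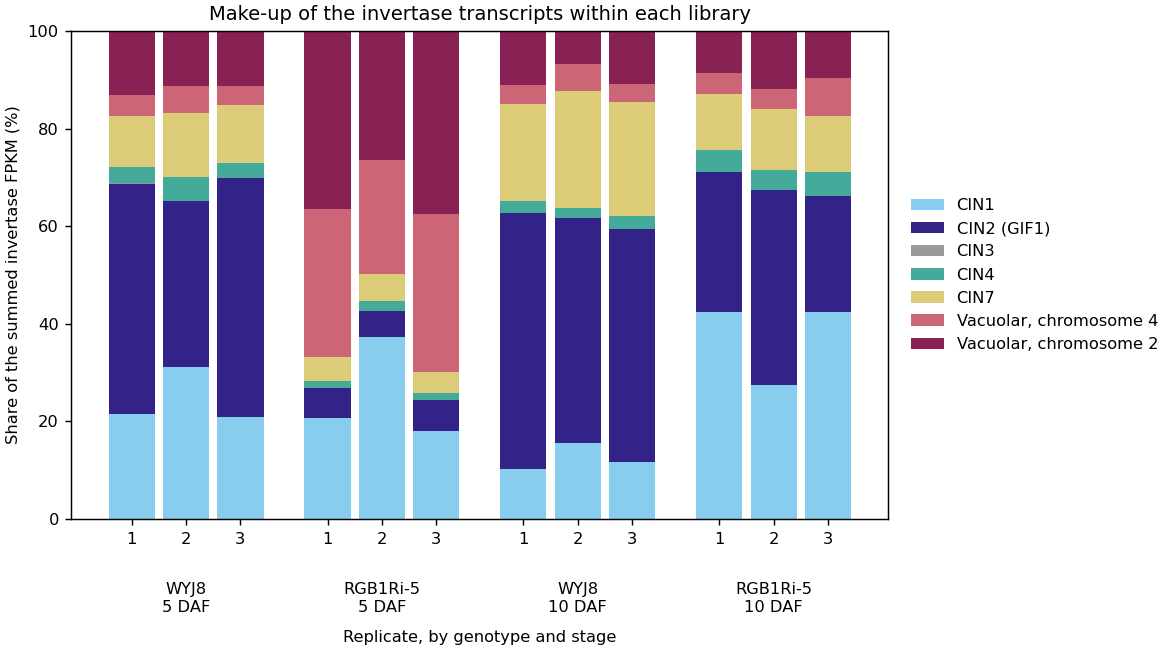
Share of each invertase in the summed FPKM of the 7 genes (%) in each of the 12 libraries, by genotype and stage. *CIN3* is too low to be seen. The vacuolar genes hold 49.7% to 69.9% in *RGB1Ri-5* at 5 DAF and 12.3% to 17.3% in all other libraries.

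Markers of other tissues moved with these groups. The marker and pathway lists were drawn up from general knowledge of rice locus identifiers, which no table used here pairs with names. They were chosen with earlier results of these data known, so their counts are a description only. The 6 starchy endosperm markers summed to 5404 to 14388 FPKM in *WYJ8* and to 38.3 to 84.9 FPKM in *RGB1Ri-5* at 5 DAF, with 6 of 6 called lower. The 4 green pericarp markers summed to 523 to 740 FPKM in *WYJ8* and 3712 to 4239 FPKM in *RGB1Ri-5* at 5 DAF, with 4 of 4 called higher. The 3 pollen and anther markers summed to 0.583 to 2.21 FPKM and 432 to 563 FPKM, with 3 of 3 called higher, and the 4 floral organ and hull markers to 307 to 416 FPKM and 825 to 956 FPKM, with 1 of 4 called higher. Over all tested genes 10.8% were called higher and 10.1% lower at this stage. No marker was at 0 in all libraries of either 5 DAF group. The 5 DAF *RGB1Ri-5* libraries, where the vacuolar invertases and *CIN1* were highest, were thus also those with the lowest endosperm and the highest pericarp and pollen markers. Their part in the invertase result was not tested.

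At 10 DAF the endosperm markers summed to 25922 to 29499 FPKM in *WYJ8*, where 1 of the 6 was listed in no library. In *RGB1Ri-5* they summed to 2323, 13762 and 1328 FPKM in replicates 1 to 3. A single one of them had a mean of 22834 FPKM in *WYJ8* and thus made up most of that sum. In *RGB1Ri-5* 3 of 6 were called lower and 1 higher on deposited FPKM, beside 3.33% and 36.4% of all tested genes. After scaling 5 were lower and 1 higher, beside 9.09% and 9.25%. The 1 called higher was the unlisted marker, with means of 3422 FPKM in *WYJ8* at 5 DAF, 0 in *WYJ8* at 10 DAF and 1262 FPKM in *RGB1Ri-5* at 10 DAF. Unlisted genes count as 0, so that call rests on an absent entry. Replicate 2 of *RGB1Ri-5*, with the highest endosperm sum of that group, had the lowest *CIN1*, *CIN4*, *CIN7* and vacuolar invertase levels on deposited FPKM. After median-of-ratios scaling this no longer held for the vacuolar gene on chromosome 2, at 10.3, 11.2 and 11.4 in replicates 1 to 3. The pollen and anther markers were at 0.0475 to 0.349 FPKM in *WYJ8* and 0.205 to 19.4 FPKM in *RGB1Ri-5*, and the pericarp markers at 937 to 1237 and 997 to 1883 FPKM. The floral organ and hull markers were at 64.8 to 95.3 FPKM in *WYJ8* and 302 to 619 FPKM in *RGB1Ri-5*. By either scaling 4 of 4 were called higher, beside 36.4% of all tested genes on deposited FPKM and 9.25% after scaling. The part of these tissues in the result for *CIN1* and *CIN4* at 10 DAF was not tested. *OsNF-YB1* (LOC_Os02g49410), an endosperm transcription factor, had 148, 133 and 294 FPKM in *WYJ8* and 0.155, 0.607 and 0.0754 FPKM in *RGB1Ri-5* at 5 DAF. At 10 DAF it had 331, 320 and 252 FPKM in *WYJ8* and 17.5, 109.6 and 8.04 FPKM in *RGB1Ri-5*, again with replicate 2 apart.

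**Figure D4:**
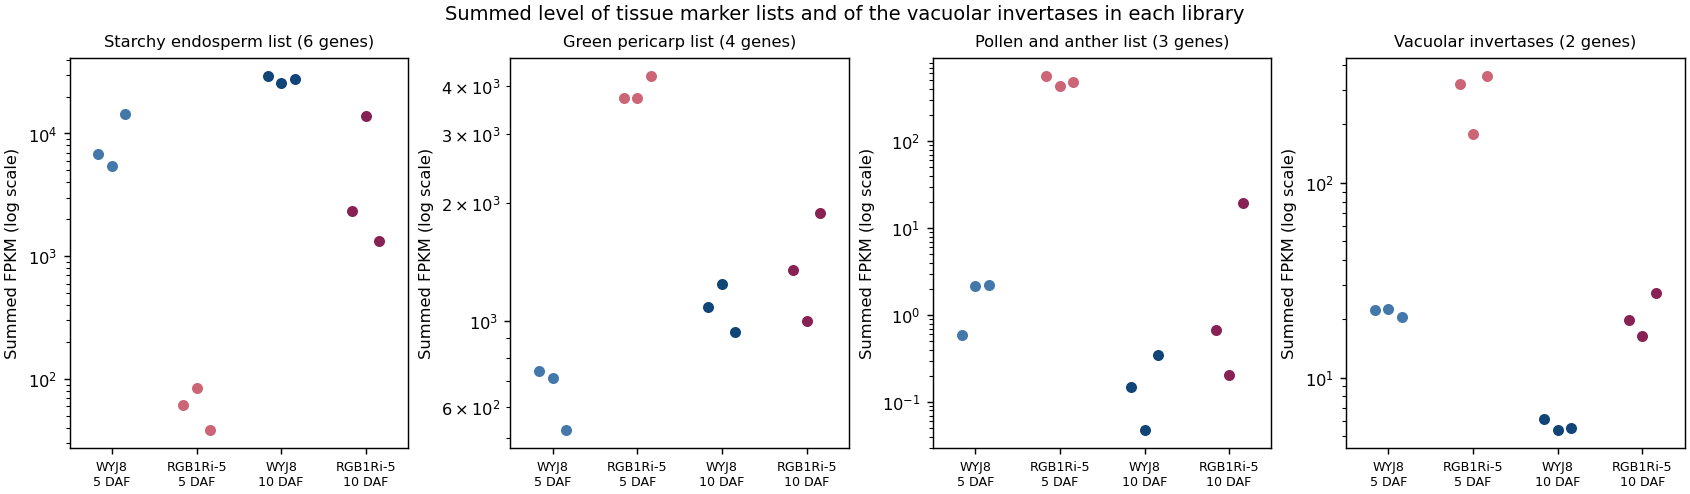
Summed FPKM (log axes) of 3 tissue marker lists and of the 2 vacuolar invertases in each of the 12 libraries (points). *RGB1Ri-5* at 5 DAF is lowest in the endosperm list, at 38.3 to 84.9, and highest in the other panels.

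Other genes of sucrose breakdown and hexose use are given beside the 10.8% of all tested genes called higher and 10.1% called lower at 5 DAF. With so few genes per list, several of the counts are near these shares. Of 8 neutral and alkaline invertases, which act in the cytosol and organelles, 2 were called higher and 0 lower in *RGB1Ri-5* at 5 DAF. Of 4 tested sucrose synthases, which cleave sucrose reversibly, 0 were higher and 2 lower, and their sum was 1458 to 2588 FPKM in *WYJ8* and 381 to 434 FPKM in *RGB1Ri-5*. Of 2 fructokinases, which phosphorylate the fructose released, 1 was lower, and of 8 tested hexokinases 1 was higher and 2 lower. Of 4 tested monosaccharide transporters, which take up hexoses from the apoplast, 2 were higher and 0 lower, with sums of 94.8 to 135 FPKM in *WYJ8* and 201 to 316 FPKM in *RGB1Ri-5*. The medians of the genotype effect at 5 DAF were 0.42 for the neutral and alkaline invertases, -0.995 for the sucrose synthases, -1.10 for the fructokinases, -0.67 for the hexokinases and 1.23 for the transporters, beside -0.07 over all tested genes. A further 3 cell wall invertase loci together had at most 1.00 FPKM in any library and were not tested.

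At 10 DAF on deposited FPKM, 4 of 8 neutral and alkaline invertases, 3 of 4 sucrose synthases, 2 of 2 fructokinases, 3 of 8 hexokinases and 3 of 4 transporters were called higher, and 1 sucrose synthase was called lower, beside 36.4% and 3.33% of all tested genes. After median-of-ratios scaling only 1 transporter was still called higher, and 1 gene each of the neutral and alkaline invertases, sucrose synthases and hexokinases was called lower, beside 9.25% and 9.09% of all tested genes. The scaled medians were 0.24, 0.20, 0.18, -0.53 and 0.75 for the neutral and alkaline invertases, sucrose synthases, fructokinases, hexokinases and transporters.

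Among the invertases themselves, *CIN2* followed a course of its own across the 12 libraries. Its Pearson r of log2 values with the other tested members ran from -0.08 to 0.48, and from -0.62 to -0.33 after median-of-ratios scaling. *CIN1* and *CIN4* correlated at 0.97 (0.95 after scaling). These values describe 12 libraries in 4 groups and are not tests. Among 10530 other tested genes averaging 10 FPKM or more, the locus most like *CIN2* on deposited FPKM was LOC_Os02g32750 (r = 0.96). Its mean levels were 36.8 and 25.4 FPKM in *WYJ8* and *RGB1Ri-5* at 5 DAF and 20.7 and 31.3 FPKM at 10 DAF. The locus most like the vacuolar gene on chromosome 2 was LOC_Os01g42520 (r = 0.99), with mean levels of 49.5 and 739 FPKM in *WYJ8* and *RGB1Ri-5* at 5 DAF and 15.3 and 46.6 FPKM at 10 DAF. The tables used here pair neither locus with a name. Likeness was not computed after median-of-ratios scaling, so it may in part reflect the lower deposited values of most genes in *WYJ8* at 10 DAF.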

How the data were processed

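Total RNA of developing grain was sequenced in 12 libraries, 3 for each genotype and stage. The authors mapped reads to the MSU Release 7 rice annotation and deposited FPKM per gene, 1 set of values per library. Their processing notes name FastQC, TopHat2 2.1.0 and Cufflinks 2.1.1. FPKM is scaled within each library, so a few abundant transcripts lower all other values. Counts and depths are not part of these values, so no counting interval is given.

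Groups and replicate numbers came from the labels. Unlisted genes counted as 0 FPKM. Genes averaging 1 FPKM or more across all 12 libraries were fitted as log2(FPKM + 1) by limma 3.58.1 in R 4.3.3, with 4 group means and a trended prior variance, and p-values were adjusted after Benjamini and Hochberg for every gene tested. A call needed an adjusted p below 0.05 with a difference of 1 or more on the log2 scale, the study's thresholds. For single interactions the adjusted p alone decided. The study's own Cufflinks test needs the mapped reads and was not repeated. Fold changes on this scale understate those of low genes. Median-of-ratios scaling divided each library by its median ratio to the geometric mean of genes listed in every library.

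Alternatives were other scalings (median of ratios, quantile, equal total with and without the 100 genes highest on average), a pseudocount of 0.1, no filter, a minimum mean of 5 FPKM, no fold limit, no trend, only the libraries compared, a replicate block, and each library left out. Titles give the replicate numbers, and no source used here says what they share. Deviations of same-numbered *WYJ8* libraries from their group means correlated at 0.11, 0.25 and 0.18 between the stages. That comparison was therefore also fitted with the block on the *WYJ8* libraries alone. The procedure was tested on simulated data. The members and lists were chosen with earlier results of these data known. All 7 members are named, with the loci most alike (highest Pearson r on deposited FPKM) to *CIN2* and to 1 vacuolar gene. Called pathway genes are not named, since no table used here pairs their identifiers with names. Gene coordinates are as the deposited files list them. No protein or promoter sequence was used here.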

Additional observations from a re-analysis of the deposited data

Results flagged for a closer look

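The genotype effect differed between 10 and 5 DAF in 5 invertases by the interaction term of the limma fit (log2 difference of the effects, adjusted over all tested genes, 3 libraries per group). The difference was 1.35 ± 0.44 (SE, limma adjusted p = 0.0144) for *CIN1*, which dropped to 0.37 (adjusted p = 0.441) after median-of-ratios scaling. It was 2.09 ± 0.27 (limma adjusted p = 4.53e-05) for *CIN2* and 1.39 ± 0.28 (adjusted p = 0.00081) for *CIN4*. It was -2.64 ± 0.46 (limma adjusted p = 0.000331) for the vacuolar invertase on chromosome 4 and -1.57 ± 0.32 (adjusted p = 0.000932) for the one on chromosome 2. After median-of-ratios scaling it was 1.03 (limma adjusted p = 0.0199) for *CIN2* and 0.69 (adjusted p = 0.0174) for *CIN4*. The scaled values of the vacuolar genes on chromosomes 4 and 2 were -3.43 and -2.50, and *CIN7* was then called too, at -0.74 (limma adjusted p = 0.00718). The median of this difference over all tested genes was 0.86 on deposited FPKM and -0.06 after median-of-ratios scaling, so the positive values of *CIN1* and *CIN4* lay 0.49 and 0.53 above the median gene, and that of *CIN2* 1.23 above it.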

How the results depend on the processing

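Of the values of the 6 tested invertases under the alternatives, 495 kept their direction and their side of the threshold, 20 lost the call, 12 gained one and 8 turned. The *CIN7* effect at 10 DAF turned to -0.19 (median of ratios) and -0.0905 (quantile), its stage effect in *WYJ8* to 0.21 and 0.0900, and its interaction to -0.74, -0.55 and, with equal totals without the 100 highest genes, -0.17. The *CIN4* stage effect in *RGB1Ri-5* ran from -0.37 to 0.0197 as single libraries were left out, being 0.0197 without replicate 2 at 10 DAF. Members called lower at 5 DAF ran from 0 to 1, being 0 without replicate 3 of *WYJ8* or replicate 2 of *RGB1Ri-5* (*CIN2*). With either median-of-ratios or quantile scaling, 2 members were called higher at 10 DAF and 1 lower between stages in *WYJ8*. With no fold limit 1 member (*CIN2*) was called higher between stages in *RGB1Ri-5*. *CIN2* at 10 DAF gained the call in 6 settings, among them equal totals, at 1.13.

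Over all tested genes, calls at 10 DAF went from 8527 to 3938 (median of ratios), 3470 (quantile) and 17392 (no fold limit). Calls between stages in *WYJ8* went from 7613 to 3096, 2572 and 17046, and to 4825 with equal totals without the 100 highest genes. Interaction calls went from 16245 to 9638 and 10140. With no fold limit, calls at 5 DAF went from 4470 to 10982, and calls between stages in *RGB1Ri-5* from 3631 to 9387, or to 2401 with a mean of at least 5 FPKM, where fewer genes were tested. Apart from these, the cause was not tested.

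The deviations of same-numbered libraries from their group means correlated at -0.27 to -0.01 between genotypes and at -0.10 to 0.16 between stages of *RGB1Ri-5*. Libraries of different numbers were not compared, so these values cannot decide whether equal numbers paired libraries. A replicate block changed no call of an invertase, and left 4459 genes called at 5 DAF, 8529 at 10 DAF and 7607 between stages in *WYJ8*, or 7658 there with the *WYJ8* libraries alone, a fit chosen after seeing the data. Depth is unknown, so nothing can be said of counting error in low genes such as *CIN3*.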
